A study of Mus musculus with 16 samples.

Results

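Mouse genes that carry a provisional symbol, the letters Gm followed by a number, are loci that were predicted from the genome and have not been given a name of their own. Of the 12900 RNAs measured in NIH/3T3 fibroblasts, 911 had such a symbol, and the 150 with a mean of at least 2 log2 CPM over all 16 samples are described here. CPM is a gene's number of reads, scaled to the same total number of reads in every sample with library sizes adjusted by the authors. The 150 were thus chosen by this mean level and the symbol, so that the levels below are a description, whereas the differences between fractions and between lines were not used by it. Just inside the limit were *Gm10169* at 2.01, *Gm5801* at 2.01 and *Gm684* at 2.01, and just outside were *Gm13056* at 2.00, *Gm3531* at 1.99 and *Gm16845* at 1.97 log2 CPM.

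NIH/3T3 is an established mouse fibroblast line. Both lines compared here were stable lentiviral NIH/3T3 derivatives that expressed a human β-globin coding sequence under a doxycycline-inducible promoter. In the HBB control line the reporter ended in the 3′UTR of human HBB, and in the Pkp4 cUTR line it ended in the 3′UTR of mouse *Pkp4*, an RNA localized at protrusions, as a competitor for RNAs that use the same route. All cells received 1 μg/ml doxycycline for 3 days, were serum-starved, were plated for 2 h on filters with 3 μm pores and extended protrusions for 1 h toward lysophosphatidic acid (LPA). They were then fixed for 10 min in 0.3% paraformaldehyde. Protrusions (Ps) and cell bodies (CB) were collected from separate filters, with 4 samples for each line and fraction. The labels do not tell whether the replicates were separate cultures, so that p-values measure the spread between these samples.

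Many predicted genes are processed pseudogenes. These arise when a spliced mRNA is copied back into the genome by the reverse transcriptase of a retroelement, so that they lack introns and resemble the mRNA of a parent gene. Abundant mRNAs, above all those for ribosomal proteins (r-proteins), have left many of them. Others of the 150 are long noncoding RNAs, which may act in the nucleus or in the cytoplasm, and short open reading frames whose proteins were recognized late.

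The reference annotation (GENCODE vM21, build GRCm38, which is mm10) held 145 of the 150, 130 under the same symbol and 15 under a later name, and they lay on 20 chromosomes. It gave 91 as pseudogenes, 27 as long noncoding RNAs, 23 as protein coding genes and 4 as small RNAs. The other 5, *Gm20204*, *Gm5428*, *Gm9769*, *Gm25822* and *Gm21967*, are reported by symbol alone. When the longest transcript of each gene was aligned to all annotated transcripts, 100 of the 150 matched a named gene at 90% identity or more over at least 75% of their length, and are called copies here. They had 82 source genes, and 47 of them were copies of 33 r-protein mRNAs. Among the 100 copies, 90 were annotated as pseudogenes, 8 as protein coding, 1 as long noncoding and 1 as a small RNA. The median identity was 99.4%, 67 were at 99% or more, and 13 were identical to their source over their whole length.

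The closeness of copies and sources is shown here by stretches of 30 bases inside the coding sequence of the source, chosen where the pair differed most, from the GENCODE vM21 transcripts. The first pair is a copy among the most abundant and its source, and the second pair is the copy whose enrichment was lowest, with its source. Capitals mark the bases that differ.
Gm10736 (chr13:111593558-111593587, minus strand): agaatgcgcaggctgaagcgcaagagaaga
Rpl41: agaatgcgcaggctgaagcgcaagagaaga
Gm4875 (chr6:117997592-117997621, plus strand): gccgcaAggggcTcaTtTgGggTgaagggg
Lasp1: gccgcaTggggcCcaGtGgAggAgaagggg
*Gm10736* shows no difference from *Rpl41*, the mRNA of the shortest r-protein, in its 78 bases. *Gm4875* differs from *Lasp1*, which encodes an actin-binding LIM and SH3 domain protein, at 6 of these 30 positions, counted from the first base shown with the source before the copy (T7A, C13T, G16T, G18T, A20G and A23T). Such differences decide how a read can be assigned, and how reads matching several places were counted is not given in the sources used here. A value of a copy and a value of its source therefore cannot be taken as fully separate measurements.

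The 16 samples held 18660287 to 31260831 reads, and a count of 3 reads corresponded to 0.0890 to 0.176 CPM. The 150 genes together took 0.637% to 0.949% of the reads, and the lowest count of any of them in any sample was 22 reads. Of 12 fibroblast markers 10 were measured, including *Col1a1*, *Vim* and *Fn1*, but not *Thy1* and *Lum*. They ranged from 0.23 (*Dcn*) to 12.53 log2 CPM (*Vim*). Their sum was 14.24 to 14.46 log2 CPM in protrusions and 14.67 to 14.95 in cell bodies. *Epcam*, *Kdr*, *Ptprc*, *Myod1* and *Rbfox3* were not among the RNAs measured. Of the lists for other cell types, 3 of 6 epithelial, 2 of 4 endothelial, 1 of 5 haematopoietic, 1 of 3 skeletal muscle and 2 of 3 neural markers were measured, the highest being an epithelial keratin mRNA, *Krt14*, at 7.61 log2 CPM. Their part in the results below was not tested. In both lines, replicate 4 of the cell bodies stood apart in the genes described here. The median of the 150 was 3.41 log2 CPM in replicate 4 of the HBB cell bodies against 2.98 to 3.05 in the other 3, and 3.68 in replicate 4 of the Pkp4 cUTR cell bodies against 3.01 to 3.21. Results that rest on these libraries are given with and without them.

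The levels spanned 2.01 to 10.16 log2 CPM, with 96 of the 150 below 4 and 19 at 6 or above. The 6 highest were copies, *Gm8730* (*Rplp0*, 10.16), *Gm10260* (*Rps18*, 9.53), *Gm10736* (*Rpl41*, 9.47), *Gm13394* (*Gapdh*, the glycolytic enzyme, 9.04), *Gm10076* (*Rpl41*, 8.53) and *Gm15459* (*Hspa8*, the constitutive Hsp70 chaperone, 8.53). After them came *Gm26917*, a long noncoding RNA, at 8.37 and *Gm23935*, annotated as a miRNA gene, at 8.28 log2 CPM. Scaled to exon length the order changed, with *Gm10736* at 13.15, *Gm23935* at 12.42, *Gm10260* at 10.37, *Gm8730* at 10.23 and *Gm26917* at 6.64 log2 CPM per kb. However, *Gm10736* and *Gm23935* are shorter than a sequenced read, so that their values per kb are not comparable with those of longer genes. *Gm10736* and *Gm10180* are both 78 bases long and identical to the same part of *Rpl41*, yet they stood at 9.47 and 3.18 log2 CPM. Against their own sources the copies were lower by a median of 5.38 log2 units, and 5 exceptions lay above the source. The largest of these concerned *Rpl24*, an r-protein mRNA listed at 0.03 log2 CPM, while its copies *Gm9385* and *Gm12254* were at 3.96 and 3.27. *Gm9825* lay above *Rnps1* at 5.58 against 5.12 log2 CPM, and *Gm9855* above *Tdg* at 3.18 against 3.14.

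The mean level was higher in protrusions than in cell bodies (log2(FC) above 0) for 124 of the 150 genes in each line. Of all RNAs, 50.5% were above 0 in HBB and 50.8% in Pkp4 cUTR cells. With reads scaled to each sample's total, 109 of the 150 were above 0 in HBB and 105 in Pkp4 cUTR cells. The question was which of them were distributed unevenly between Ps and CB, and an RNA was counted as enriched with a fold above 2 and an unadjusted p under 0.05 (limma). In HBB cells 35 of the 150 were enriched and 2 were depleted more than 2-fold, where 4.54% and 4.00% of all 12900 RNAs were. Among the same genes in Pkp4 cUTR cells 29 were enriched and 2 were depleted, against 5.07% and 2.92% of all RNAs. At an adjusted p under 0.05 with any fold, 93 rose and 10 fell in HBB cells, and 87 rose and 13 fell in Pkp4 cUTR cells, where 28.3% and 28.9%, and 28.2% and 28.5%, of all RNAs did. The median log2(FC) was 0.69 in HBB and 0.57 in Pkp4 cUTR cells, against 0.01 and 0.01 over all RNAs. Between the lines, 84 genes were higher in protrusions of both and 10 were lower in both at an adjusted p under 0.05. The share of all RNAs passing in both lines was not computed. It can be at most the 28.2% that rose and the 28.5% that fell in Pkp4 cUTR cells. More than 2-fold enrichment in both lines was found for 26 genes, where 3.02% of all RNAs had it. In 64 genes every HBB protrusion sample lay above every HBB cell-body sample, and in 10 every one lay below, against 25.5% and 26.8% of all RNAs. The numbers in Pkp4 cUTR cells were 39 and 6, against 22.6% and 22.2%. Among the 761 predicted genes below the level limit, the median log2(FC) was 0.45 and 0.40, with 100 enriched and 38 depleted more than 2-fold in HBB cells.

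These numbers depended on single cell-body libraries and on scaling. Without replicate 3 of the HBB cell bodies 23 were enriched in HBB cells. In Pkp4 cUTR cells 18 were enriched without replicate 3 of the cell bodies, 49 without replicate 4, and 50 without replicate 4 of both cell-body groups, where HBB cells had 52. With reads scaled to each sample's total, the median of all RNAs moved to −0.23 in HBB and −0.25 in Pkp4 cUTR cells, 16 genes were enriched and 3 depleted in HBB, against 1.88% and 8.88% of all RNAs, and 11 were enriched and 2 depleted in Pkp4 cUTR cells, against 1.90% and 8.09%. At an adjusted p under 0.05 with any fold, 65 of the 150 then rose and 18 fell in HBB cells. Of all 12900 RNAs, 1940 rose and 5614 fell there. In Pkp4 cUTR cells 61 of the 150 rose and 26 fell, where 1797 and 5867 of all 12900 RNAs did. The share that fell was thus lower among the 150 than among all RNAs in both lines, and the share that rose was higher. Relative to the shift in the median of all RNAs, the median of the 150 was 0.68 and 0.57. The values of CPM are shares of a fraction's RNA, so that more of one RNA and less of the rest cannot be told apart.

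**Figure D1:**
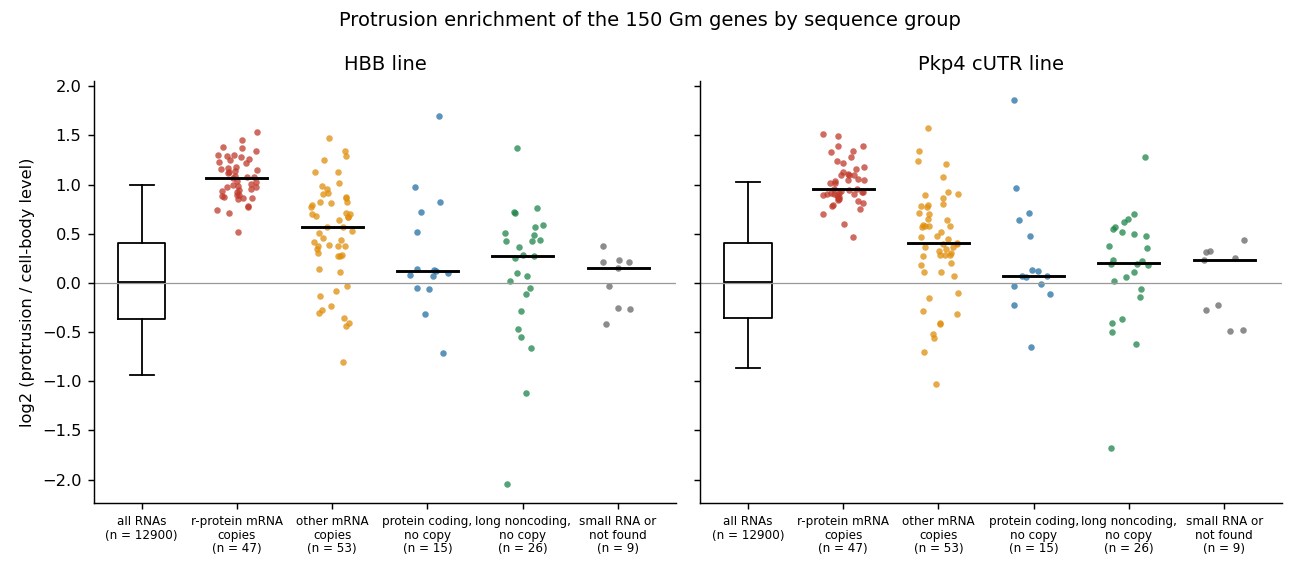
Protrusion enrichment (log2 ratio of protrusion to cell-body level, limma-voom fit) of each of the 150 genes in the HBB line (left) and the Pkp4 cUTR line (right). Points are genes, bars are group medians, and the box gives the quartiles of all 12900 RNAs with whiskers at their 5th and 95th percentiles. The last group also holds *Gm10307*, and all 47 r-protein mRNA copies lie above 0 in both lines.

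The copies of r-protein mRNAs were most of the genes enriched more than 2-fold, 27 of 35 in HBB and 22 of 29 in Pkp4 cUTR cells. All 47 had a log2(FC) above 0 in both lines, also with sample totals, quantile normalization or log2(CPM + 1). At an adjusted p under 0.05 they were 42 of the 93 genes that rose in HBB and 43 of the 87 in Pkp4 cUTR cells. None of the 47 fell. Their log2(FC) ranged from 0.51 to 1.53 with a median of 1.07 in HBB cells, and from 0.46 to 1.52 with a median of 0.95 in Pkp4 cUTR cells. The 81 r-protein mRNAs themselves had medians of 1.11 and 1.04, and 78 and 77 of them rose at an adjusted p under 0.05.

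*Gm8730* (chr8:102864845-102865798), the highest of the 150, was at 10.47, 10.35, 10.59 and 10.60 log2 CPM in HBB protrusions and at 9.45, 9.38, 9.43 and 10.03 in HBB cell bodies. The Pkp4 cUTR line had 10.50, 10.67, 11.13 and 10.70 in protrusions and 9.85, 9.67, 9.53 and 10.23 in cell bodies. The fractions did not overlap in either line, and replicate 4 was the highest cell-body sample of both. The log2(FC) was 0.93 ± 0.16 (SE, n = 4 per fraction, adjusted p = 7.29e-05, limma) in HBB and 0.92 ± 0.16 in Pkp4 cUTR cells (adjusted p = 9.26e-05). *Gm10260*, annotated as protein coding and 99.1% identical to *Rps18*, had values of 0.98 and 0.92, and *Gm10736* 0.93 and 0.91.

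By the mean log2(FC) over both lines, the highest r-protein copies were those of *Rps24*, *Gm8292* (chr1:55335401-55335796) and *Gm2830* (chr13:54499705-54500089). *Gm2830* was at 3.79, 3.61, 3.74 and 3.41 log2 CPM in HBB protrusions and at 2.22, 2.00, 2.47 and 2.396 in HBB cell bodies, and at 3.73, 4.08, 4.63 and 3.73 against 2.98, 1.98, 2.20 and 2.95 in Pkp4 cUTR cells. No protrusion sample reached down to a cell-body sample of its line. Its log2(FC) was 1.37 ± 0.23 in HBB (adjusted p = 5.47e-05) and 1.52 ± 0.22 in Pkp4 cUTR cells (adjusted p = 1.34e-05), and *Gm8292* had 1.53 ± 0.28 and 1.496 ± 0.26. *Rps24* itself was among the most enriched sources, at 1.44 in both lines. *Gm10180* (*Rpl41*) rose by 1.46 and 1.33, *Gm14586*, another r-protein copy, by 1.35 and 1.40, and *Gm8430* (*Rps27a*) by 1.38 and 1.39, all at an adjusted p under 0.05, and in HBB cells *Gm10180* and *Gm8430* were thus above *Gm2830*. In *Gm14586* and *Gm8430*, replicate 4 of the Pkp4 cUTR protrusions lay far below the other 3, at 3.37 against 4.73 to 4.76 and at 3.24 against 4.52 to 4.59 log2 CPM. *Gm10076*, a lincRNA by annotation that follows *Rpl41* at 99.5% identity, had a log2(FC) of 1.03 and 1.06.

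The other 53 copies were spread more widely. In HBB cells 32 rose and 2 fell at an adjusted p under 0.05, and in Pkp4 cUTR cells 27 rose and 5 fell. Their medians were 0.57 and 0.40. *Gm4204*, a copy of the histone chaperone mRNA *Nap1l1*, was at 3.80, 3.82, 4.02 and 3.96 log2 CPM in HBB protrusions and at 2.66, 2.55, 2.52 and 2.47 in HBB cell bodies, a log2(FC) of 1.34 ± 0.10 (adjusted p = 9.02e-09). In Pkp4 cUTR cells the log2(FC) was 1.21 ± 0.09 (adjusted p = 2.68e-08). *Gm7658* (*Eif3m*, a subunit of translation initiation factor eIF3) rose by 1.30 and 1.34, *Gm14284* (*Snrpe*) and *Gm8186* (*Snrpg*), copies of mRNAs for spliceosomal Sm proteins, by 1.13 and 0.89 and by 1.13 and 0.93, and *Gm6969* (*Cox7a2l*, a respiratory supercomplex factor) by 0.88 and 0.78.

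The most abundant of these copies had smaller values. *Gm13394* (*Gapdh*) had a log2(FC) of 0.57 ± 0.16 in HBB (adjusted p = 0.00482) and 0.48 in Pkp4 cUTR cells (adjusted p = 0.0146), and *Gm15459* (*Hspa8*) of 0.35 ± 0.10 (adjusted p = 0.00467) and 0.27 (adjusted p = 0.0216). With reads scaled to each sample's total *Gm15459* was at 0.11 and 0.01 and *Gm13394* at 0.33 and 0.22, with no adjusted p under 0.05. The call of *Gm13394* in Pkp4 cUTR cells was also lost without replicate 4 of the cell bodies or replicate 1 of the protrusions (adjusted p up to 0.0622), and that of *Gm15459* without replicates 1 or 4 of either fraction (up to 0.0816). *Gm4735* (*Eno1b*, an enolase) did not pass in either line, at 0.11 and 0.11, and was at −0.12 and −0.15 with sample totals.

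Copies on the cell-body side included *Gm15487* and *Gm4875*. *Gm15487* (chr6:37806086-37806550), 99.8% identical to *Atp6v0c*, which encodes the proteolipid subunit of the vacuolar ATPase, was at 6.35, 6.42, 6.45 and 6.49 log2 CPM in HBB protrusions and at 6.67, 6.68, 7.01 and 6.77 in HBB cell bodies. The fractions did not overlap in either line, and it fell by 0.36 in HBB (adjusted p = 0.00716) and by 0.56 in Pkp4 cUTR cells (adjusted p = 2.35e-04), beside −0.31 and −0.46 for *Atp6v0c*. *Gm4875*, with a log2(FC) of −0.81 ± 0.34 in HBB (adjusted p = 0.0479) and −1.03 ± 0.42 in Pkp4 cUTR cells (adjusted p = 0.0440), was at 2.66, 1.78, 0.18 and 2.71 log2 CPM in Pkp4 cUTR protrusions, and its fractions overlapped in that line because of replicate 4 of the cell bodies, at 1.77. The call was lost without any of 9 of the 16 libraries in HBB (adjusted p up to 0.132) and without any of 11 in Pkp4 cUTR cells. Without replicate 3 of the Pkp4 cUTR protrusions, the log2(FC) in that line was −0.47 (adjusted p = 0.248).

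Copies were next compared with their sources. Across the 100 pairs, log2(FC) of copy and source had the same sign in 92 in HBB and 91 in Pkp4 cUTR cells, and the median absolute difference was 0.15 and 0.18. Pearson's r over these pairs was 0.83 and 0.79, which is a description, since both members of a pair come from the same libraries, their reads may overlap, and several copies share a source. The difference between copy and source in each sample was compared between protrusions and cell bodies by an exact permutation test (two-sided), in which 4 and 4 samples can be relabelled in 70 ways and the smallest p is 0.0286. Of these 200 exact tests, 10 in HBB and 7 in Pkp4 cUTR cells reached an unadjusted p under 0.05, and none passed adjustment over the 200 (smallest adjusted p = 0.336). Adjustment could be passed only if at least 115 of the 200 tests reached the smallest p, so that this design could hardly give a call and says nothing on whether copies and sources differ. Both lines reached the smallest p for 2 pairs, *Gm12254* against *Rpl24*, with differences of 0.86 in HBB and 0.91 in Pkp4 cUTR cells, and *Gm9825* against *Rnps1*, with 0.34 and 0.50. In both of these the copy was the more abundant member.

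*Gm12254* rose by 1.15 in HBB and by 0.96 in Pkp4 cUTR cells, and *Gm9385*, the other copy of *Rpl24*, by 1.08 and 1.10, at an adjusted p under 0.05. *Rpl24* had a log2(FC) of 0.32 ± 0.32 (adjusted p = 0.408) and 0.04 ± 0.33 (adjusted p = 0.932). It was listed at a mean of only 0.03 log2 CPM, so that these values are imprecise and do not show that the *Rpl24* mRNA was evenly distributed. On the other side of the diagonal were *Gm12715*, at −0.30 against 0.38 for *Actg1*, the γ-actin mRNA, in HBB cells, and *Gm4875*, at −0.81 against −0.04 for *Lasp1*. Neither *Gm12715* nor *Lasp1* passed the test in either line.

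**Figure D2:**
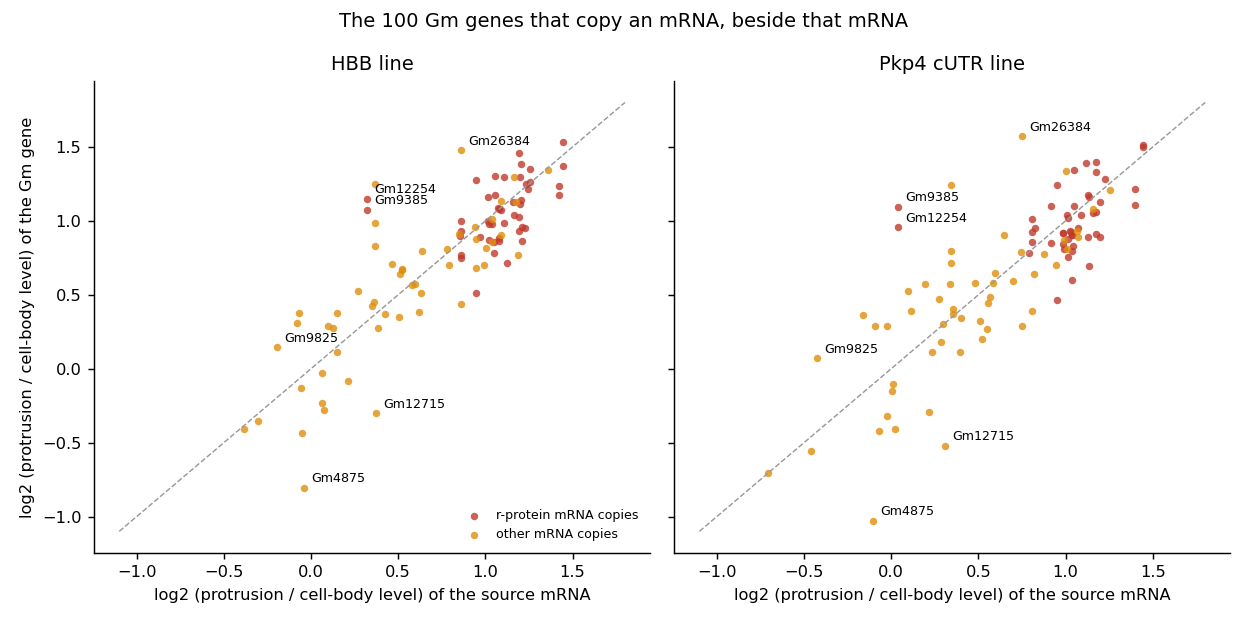
Enrichment of the 100 copies (vertical) against that of their source mRNAs (horizontal), both as log2 ratios of protrusion to cell-body level, in the HBB line (left) and the Pkp4 cUTR line (right). The dashed line marks equal values; both *Rpl24* copies stand above it and *Gm12715* and *Gm4875* below it.

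The 50 genes that were no copy, 26 long noncoding RNAs, 15 protein coding genes, 3 small RNAs, 1 pseudogene (*Gm10307*) and the 5 not found, were nearer to even distribution, with medians of 0.15 in HBB and 0.19 in Pkp4 cUTR cells. In HBB cells 19 rose and 8 fell at an adjusted p under 0.05, and in Pkp4 cUTR cells 17 and 8. *Gm773*, a protein coding gene on the X chromosome (chrX:56189827-56212881), had the highest enrichment of the 150 in both lines. It was at 3.12, 3.44, 3.06 and 3.46 log2 CPM in HBB protrusions and at 2.02, 1.34, 1.39 and 1.54 in HBB cell bodies, a 3.24-fold difference (log2(FC) 1.695 ± 0.18, adjusted p = 5.50e-07). In Pkp4 cUTR cells it was at 3.29, 3.58, 3.23 and 3.13 against 1.57, 0.96, 1.25 and 2.05, a 3.63-fold difference (1.86 ± 0.19, adjusted p = 4.21e-07). The fractions were far apart in both lines. Over the 16 samples the RNAs most like it in pattern were *Vps35*, *Yme1l1* and *Rabep1* (Pearson's r of log2 CPM from 0.982 to 0.984, a description over samples that share the fraction difference).

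Among the other protein coding genes on the enriched side, *Gm1673*, *Gm5617* and *Gm561* had between 471 and 669 exonic bases. Whether length goes with enrichment was not tested. *Gm1673* rose by 0.98 and 0.96, *Gm5617* by 0.82 and 0.64, and *Gm561*, now named *Smim26* for a small integral membrane protein, by 0.72 and 0.71, all at an adjusted p under 0.05. On the cell-body side, *Gm15800*, now named *Hectd4* after its HECT domain, which is that of a ubiquitin ligase family, spans 16443 exonic bases and fell by 0.71 ± 0.13 in HBB (adjusted p = 1.78e-04) and by 0.65 in Pkp4 cUTR cells (adjusted p = 5.17e-04). In replicate 4 of the HBB cell bodies it was at 5.07 log2 CPM, below the other 3 at 5.41 to 5.48 and above the protrusions at 4.59 to 4.75. *Gm14137* had −0.32 and −0.22, both with an adjusted p under 0.05. *Gm7325*, now named *Mymx*, which encodes the myoblast fusion peptide myomixer, was measured at 3.57 log2 CPM and had a log2(FC) of 0.11 and 0.07, neither of which passed the test, and of −0.13 and −0.19 with sample totals. *Myod1* and *Myog* were not among the RNAs measured.

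The 26 long noncoding RNAs that were no copy included both ends of the range. *Gm28875* (chr12:104925501-104926689, minus strand) was at 5.07, 4.91, 5.38 and 5.06 log2 CPM in HBB protrusions and at 3.80, 3.56, 3.59 and 4.04 in HBB cell bodies, and at 4.99, 4.99, 5.599 and 5.05 against 3.88, 3.62, 3.78 and 4.25 in Pkp4 cUTR cells. The fractions were separate in both lines, and it was the most enriched long noncoding RNA of the 150, with a log2(FC) of 1.37 ± 0.15 (adjusted p = 7.39e-07) and 1.29 ± 0.15 (adjusted p = 1.84e-06). It is 1 of 3 genes of the 150 on a list of RNAs whose localization at protrusions depends on the protein APC. The list covered 88 of the 12900 RNAs. The study drew it from control and APC-knockdown cells and not from these samples. Only RNAs enriched more than 2-fold in protrusions of those control cells could enter it. The others of the 150 on it are r-protein copies, *Gm15427*, at 0.86 and 0.81, and *Gm4149* (*Rpl37a*), at 0.95 and 0.89. All 3 rose in both lines at an adjusted p under 0.05, which the choice of the list made likely. *Gm11110* rose by 0.76 and 0.62 and *Gm15417* by 0.71 and 0.66, opposite to *Tnfsf9* (−0.84 and −0.87) and *Zbtb7b* (−0.38 and −0.37), which the annotation places on the other strand across the same region, without shared exons. Other pairs on opposite strands had the same sign in both lines, such as *Gm16062* with *Cops3* and *Gm4262* with *Litaf*. Whether the counting used strand is not given in the sources used here.

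*Gm26917* (chr17:39843013-39846341, plus strand), by annotation a lincRNA of 3329 bases, was the most depleted of the 150. It was at 7.05, 7.59, 7.10 and 7.83 log2 CPM in HBB protrusions and at 9.32, 9.03, 9.70 and 9.69 in HBB cell bodies, a 4.12-fold difference. The values in Pkp4 cUTR cells were 6.64, 7.72, 7.64 and 7.97 against 9.05, 9.26, 9.29 and 9.09, a 3.19-fold difference. No protrusion sample came within 1 log2 unit of a cell-body sample of its line. The log2(FC) was −2.04 ± 0.23 in HBB (adjusted p = 1.01e-06) and −1.68 ± 0.23 in Pkp4 cUTR cells (adjusted p = 9.74e-06). RefSeq places *Rn18s-rs5*, a pseudogene entry related to 18S ribosomal RNA, beside it at chr17:39846354-39848202. Whether the reads counted for *Gm26917* came from a ribosomal RNA transcript was not tested. The long noncoding RNAs *Malat1* and *Neat1*, which are known for residing in the nucleus, had −1.85 and −1.48 in HBB and −1.27 and −1.21 in Pkp4 cUTR cells. Of 8 measured RNAs from a list of 11 long noncoding RNAs with nuclear functions, 3 rose and 3 fell at an adjusted p under 0.05 in each line.

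*Gm26532* (chr8:84208920-84209609), whose gene body overlaps that of the microRNA miR-24-2, fell by 1.12 ± 0.16 in HBB (adjusted p = 1.51e-05) and by 0.50 ± 0.15 in Pkp4 cUTR cells (adjusted p = 0.00852). *Gm20632*, antisense to the histone gene *Hist2h2aa2*, fell by 0.66 and 0.63, *Gm22*, under the later name *Zfp469* the gene of a zinc finger protein though listed as a lincRNA, by 0.47 and 0.41, and *Gm11974* by 0.55 and 0.37, all at an adjusted p under 0.05. *Gm11974* is now named *Snhg15*, a host gene of a small nucleolar RNA (snoRNA), and its call in Pkp4 cUTR cells was lost without replicate 1 of the protrusions (adjusted p = 0.0706). *Gm20204*, which the annotation does not hold, fell by 0.42 in HBB (adjusted p = 9.77e-04) and by 0.27 in Pkp4 cUTR cells (adjusted p = 0.0134, and 0.0756 without replicate 1 of the Pkp4 cUTR protrusions). Of 13 other snoRNA hosts and named noncoding RNAs measured, 8 rose and 1 (*Snhg3*) fell in each line at an adjusted p under 0.05.

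Of the 4 genes annotated as miRNA, 1 passed the test between fractions and 3 did not. *Gm23935*, *Gm24187* and *Gm24270* are 57 bases long. *Gm24187* differs from the others at 1 position, in capitals here, and the first 30 bases are shown because they hold that position. The sequence around these genes was not compared.
Gm23935 (chr16:11144125-11144154, plus strand): cgtcgggaccGgggtccggtgcggagagcc
Gm24187 (chr13:9834496-9834525, minus strand): cgtcgggaccAgggtccggtgcggagagcc
Gm24270 (chr9:56223742-56223771, minus strand): cgtcgggaccGgggtccggtgcggagagcc
*Gm23935* and *Gm24270* have the same bases throughout, but stood at 8.28 and 2.71 log2 CPM. *Gm23935* varied widely within groups, at 8.26, 8.91, 7.86 and 8.53 in HBB protrusions, 7.997, 7.75, 7.91 and 9.24 in HBB cell bodies, 7.16, 9.56, 8.52 and 8.25 in Pkp4 cUTR protrusions and 8.67, 7.83, 7.44 and 8.63 in Pkp4 cUTR cell bodies. The fractions overlapped, and none of the 3 passed the test in either line, with log2(FC) from −0.49 to 0.23. The fourth, *Gm26384*, is 98.2% identical to a part of the 3′UTR of *Eef1a1*, the mRNA of translation elongation factor 1A. It had a log2(FC) of 1.48 ± 0.54 in HBB (adjusted p = 0.0258) and 1.57 ± 0.52 in Pkp4 cUTR cells (adjusted p = 0.0153). In replicate 4 of the cell bodies it reached 3.06 and 3.48 log2 CPM, as high as in protrusions, against −0.10 to 1.42 in the other cell-body samples. Its call in HBB cells was lost without any of 5 libraries of that line (adjusted p up to 0.136), and its call in Pkp4 cUTR cells without replicate 1, 2 or 3 of the cell bodies of that line (up to 0.0560).

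**Figure D3:**
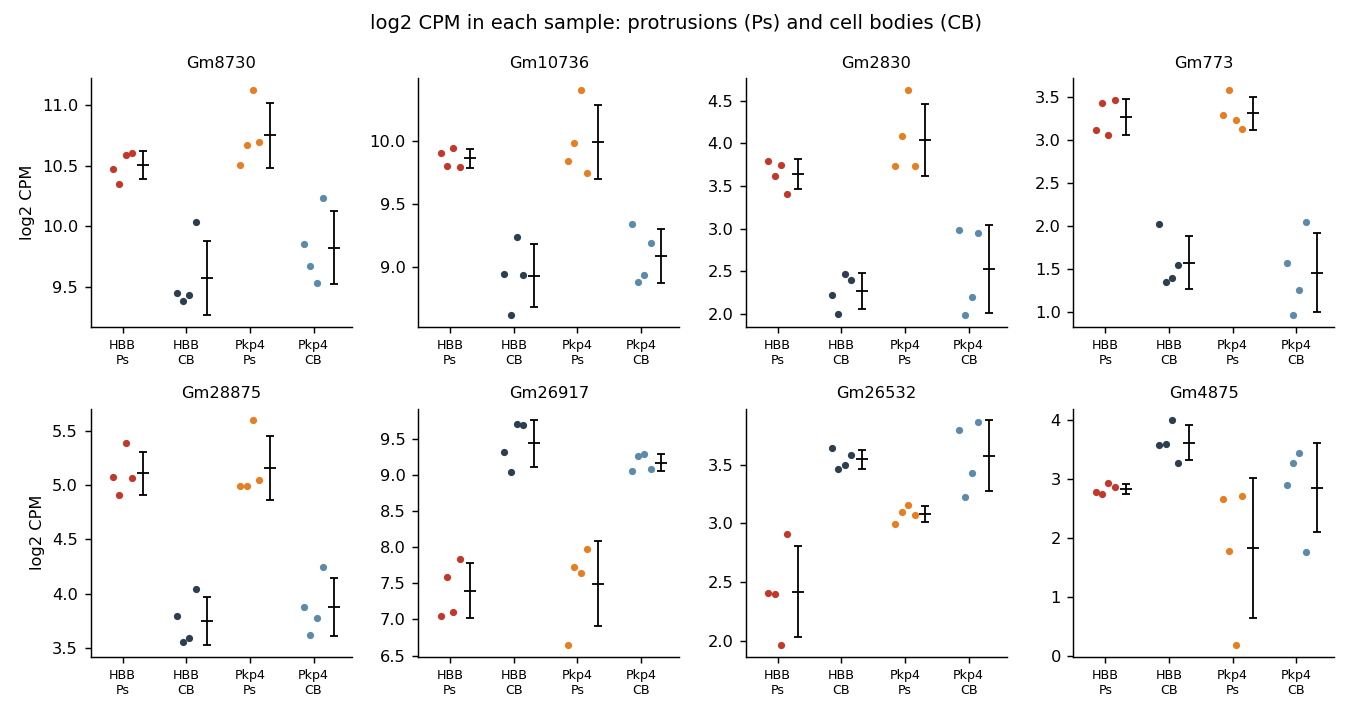
Level (log2 CPM) of 8 genes in each of the 16 samples, by line and fraction (Ps, protrusions, CB, cell bodies; points are replicates 1 to 4 from left to right, and bars give the mean ± SD, n = 4). *Gm773* and *Gm28875* are higher and *Gm26917* lower in all protrusion samples of both lines, and 1 Pkp4 cUTR protrusion sample of *Gm4875* is at 0.18.

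The next question was whether expression of the Pkp4 cUTR changed the enrichment of these genes. The log2(Diff FC), the log2(FC) of Pkp4 cUTR cells minus that of HBB cells, had a median of −0.06 over the 150 and of 0.01 over all RNAs. None passed an adjusted p under 0.05 (limma), as for all 12900 RNAs. At an unadjusted p under 0.1, 1 was higher (*Gm26532*) and 2 were lower (*Gm6563* and *Gm6472*), against 3.44% and 2.36% of all RNAs, or 5.80% either way. At an unadjusted p under 0.05 there were 2, against 2.33% of all RNAs. With a replicate block shared by the lines 6 had a p under 0.1, and leaving out replicate 1 of the Pkp4 cUTR protrusions gave 7, while leaving out replicates 3 or 4 of the Pkp4 cUTR protrusions or replicate 4 of the Pkp4 cUTR cell bodies gave 5. A count of 3 in 150 is below the background share.

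*Gm26532* was at 2.41, 2.39, 1.96 and 2.91 log2 CPM in HBB protrusions and at 3.65, 3.46, 3.49 and 3.58 in HBB cell bodies. In Pkp4 cUTR cells it was at 2.99, 3.09, 3.15 and 3.07 against 3.79, 3.22, 3.43 and 3.86. The cell bodies of the lines overlapped, and the HBB protrusions were below all Pkp4 cUTR protrusions. Its log2(Diff FC) was 0.62 ± 0.22 (unadjusted p = 0.0121, limma). *Gm6563*, a copy of the mRNA export factor mRNA *Sarnp*, had −0.57 ± 0.22 (unadjusted p = 0.0172) and was at 2.74, 3.10, 2.95 and 2.99 against 1.68, 2.01, 2.03 and 2.27 in HBB cells and at 2.59, 2.70, 2.96 and 2.76 against 2.52, 2.20, 2.00 and 2.74 in Pkp4 cUTR cells. The fractions overlapped in Pkp4 cUTR cells only. *Sarnp* itself had a log2(Diff FC) of −0.13 (unadjusted p = 0.389). *Gm6472* (*Rps7*) had −0.22 ± 0.11 (unadjusted p = 0.0626, above 0.1 without any of 6 libraries), *Gm14284* −0.24 (unadjusted p = 0.133) and *Gm13453*, a copy of the vacuolar ATPase mRNA *Atp6v1g1*, −0.26 (unadjusted p = 0.173).

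**Figure D4:**
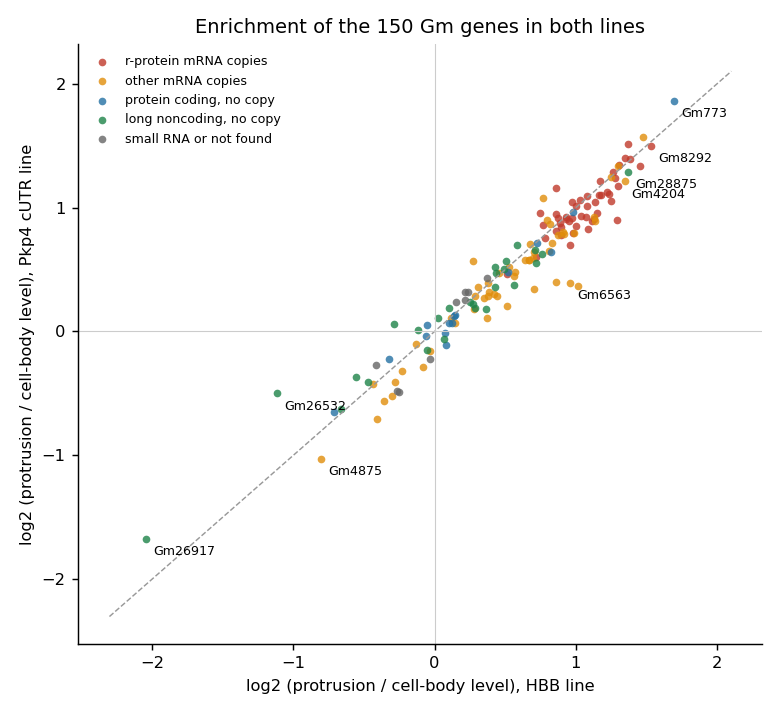
Protrusion enrichment (log2 ratio of protrusion to cell-body level) of the 150 genes in the HBB line (horizontal) and the Pkp4 cUTR line (vertical), coloured by sequence group, with the dashed line at equal values. Most genes lie near the line from *Gm26917* at the lower left to *Gm773* at the upper right, and *Gm26532* and *Gm6563* lie off it.

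Finally, the levels of the 150 were compared between the lines within each fraction. None differed more than 2-fold at an adjusted p under 0.05 (limma) in cell bodies or in protrusions, where 1.22% and 1.02% of all RNAs did. At an unadjusted p under 0.05 with any fold, 12 were higher and 8 lower in Pkp4 cUTR cell bodies, against 10.8% and 12.1% of all RNAs, and 8 were higher and 10 lower in Pkp4 cUTR protrusions, against 10.6% and 11.4%. At an adjusted p under 0.05 with any fold, 3 were higher and 4 lower in Pkp4 cUTR cell bodies, against 3.42% and 5.55% of all RNAs, and 2 were higher and 3 lower in Pkp4 cUTR protrusions, against 2.89% and 4.26%. The shares are near or below the background. Same-numbered samples of the lines varied together, and with the replicate number as a block 10 passed in cell bodies and 8 in protrusions, against 11.2% and 10.3% of all RNAs. The block added *Gm4737* (adjusted p = 0.0420), *Gm6166* (0.0277) and *Gm17455* (0.0243) in cell bodies, and *Gm4737* (0.0341), *Gm1821* (0.0283) and *Gm13375* (0.0246) in protrusions.

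*Gm15706*, a lincRNA (chr6:145250529-145251849), was lower in the Pkp4 cUTR line in both fractions. It was at 3.92, 3.82, 4.09 and 4.06 log2 CPM in HBB protrusions and at 3.44, 3.24, 3.40 and 3.24 in Pkp4 cUTR protrusions, a log2 difference of −0.64 ± 0.11 (adjusted p = 9.83e-04). In cell bodies it was at 3.12, 3.30, 3.20 and 3.42 against 2.99, 2.69, 2.55 and 2.93, a difference of −0.47 ± 0.11 (adjusted p = 0.01005). The lines did not overlap in either fraction. *Gm2115*, a protein coding gene of unknown function, differed likewise, by −0.52 ± 0.11 in protrusions (adjusted p = 0.00665) and by −0.43 ± 0.10 in cell bodies (adjusted p = 0.0119, and 0.0527 without replicate 3 of the HBB cell bodies). Both lines are stable transductants, and whether such a difference belongs to the reporter or to the derivation of the line cannot be told apart.

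The others differed in 1 fraction. In cell bodies *Gm4204* (*Nap1l1*) was higher by 0.40 ± 0.10 (adjusted p = 0.0186), *Gm6472* (*Rps7*) by 0.27 ± 0.08 (adjusted p = 0.0398) and *Gm7325* by 0.31 ± 0.10 (adjusted p = 0.0487), and *Gm14137* was lower by a log2 difference of −0.28 (adjusted p = 0.0223) and *Gm22* by −0.29 (adjusted p = 0.0478). Without replicate 4 of both cell-body groups the adjusted p of these 5 was 0.0994, 0.0992, 0.0616, 0.0563 and 0.153. Leaving out 1 library also ended the call of *Gm4204* (3 libraries, adjusted p up to 0.0594), *Gm6472* (7, up to 0.130), *Gm7325* (12, up to 0.143), *Gm14137* (4, up to 0.0957) and *Gm22* (12, up to 0.156). In protrusions *Gm20204* was higher by 0.39 ± 0.10 (adjusted p = 0.0193, up to 0.0696 without any of 3 libraries), *Gm26532* by 0.65 ± 0.18 (adjusted p = 0.0304, up to 0.106 without any of 6) and *Gm15487* was at −0.45 ± 0.11 (adjusted p = 0.0142, up to 0.0570 without replicate 2 or 3 of the Pkp4 cUTR protrusions). Its source, *Atp6v0c*, was also lower in Pkp4 cUTR protrusions, at −0.32 (adjusted p = 0.00677), as was *Lasp1* at −0.45 (adjusted p = 0.0114), the source of *Gm4875*. A difference in 1 fraction and not in the other was not tested as such for these genes except through log2(Diff FC). The 47 r-protein copies had a median difference between the lines of 0.25 in cell bodies and 0.19 in protrusions, beside 0.23 and 0.18 for the 81 r-protein mRNAs, and 1 of the 47 passed in cell bodies and none in protrusions (adjusted p under 0.05, limma), with 2 and 1 at an unadjusted p under 0.05 and a higher level.

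**Figure D5:**
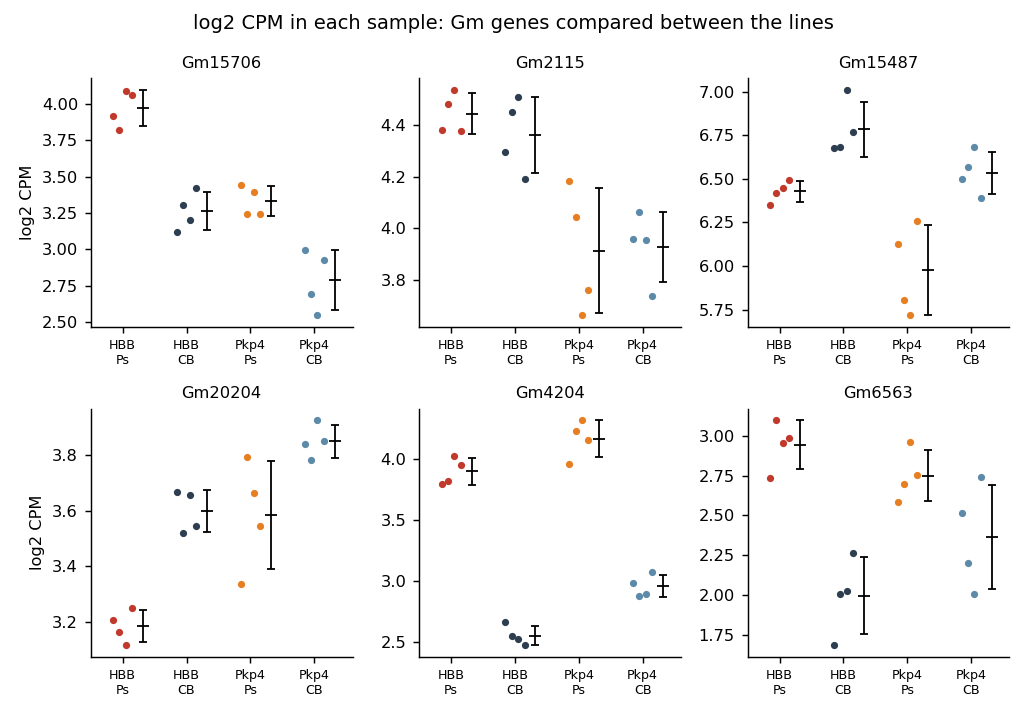
Level (log2 CPM) of 6 genes compared between the lines in each of the 16 samples (points are replicates 1 to 4 from left to right, bars the mean ± SD, n = 4). *Gm15706* is lower in the Pkp4 cUTR line in both fractions, and *Gm20204* is lowest in HBB protrusions, at 3.12 to 3.25.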

How the data were processed

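Total RNA of 16 samples was sequenced as paired-end reads from a stranded kit, per the labels. The authors aligned the reads with STAR 2.4.2a to mm10 with GENCODE release 4, counted reads per gene with Rsubread, scaled library sizes with limma 3.26.1 and deposited log2 CPM values, keeping RNAs above 0.5 in at least 1 sample. How reads matching several places, and strand, entered the counts is not given in the sources used here. The deposited log2 CPM gave whole reads in 100% of values (within 0.01 reads), from which limma-voom (limma 3.58.1, R 4.3.3) was fitted over all 12900 RNAs, the 4 groups sharing 1 estimate of spread, with Benjamini-Hochberg adjustment. The authors' columns of fold changes and p-values were not used. The fit was tested on simulated data. The count of 3 reads given above shows the scale of low values and was not used as a filter. Replicates differed by more than counting error, with a chi-square per degree of freedom of at least 3.65.

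The members and all lists were chosen with earlier results of these data known. Genes named by rule were the 6 of highest level, the 8 highest and 8 lowest by mean log2(FC) over the lines among those with an adjusted p under 0.05 and the same sign in both, up to 5 higher and 5 lower between the lines in each fraction, the 5 with the smallest p of log2(Diff FC), those on the APC-dependent list, the highest of each annotation class, the neighbours of the limit and the sources of named copies. All other genes, and the limits that define a copy, were chosen after their values were seen. Transcripts were aligned with blastn 2.17.0 to GENCODE vM21.

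Printed values come from the fit without a replicate block. Same-numbered samples of the lines met the criterion for pairing, since their deviations from the group means correlated at 0.331 to 0.628 in cell bodies and at 0.196 to 0.392 in protrusions, and values between the lines with the number as a block are given where they change a call. Within lines, pairs of Ps and CB correlated at 0.0455 to 0.389 in HBB and at −0.362 to 0.00248 in Pkp4 cUTR cells, so that the numbers did not pair the fractions. Some source genes and sequences are not reported here.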

Additional observations from a re-analysis of the deposited data

Results flagged for a closer look

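In 13 of the 140 groups of 4 samples examined (35 named genes), 1 sample lay far outside the other 3 in log2 CPM, where chance gives about 1 in 20. Replicate 4 of the HBB cell bodies was that sample for *Gm8730*, at 10.03 against 9.38 to 9.45, for *Gm10076*, at 8.23 against 7.74 to 7.80, for *Gm23935*, at 9.24 against 7.75 to 7.997, and for *Gm15800*, at 5.07 against 5.41 to 5.48. Replicate 3 of the HBB cell bodies was low for *Gm14586*, at 2.32 against 2.93 to 3.01. Replicate 4 of the Pkp4 cUTR protrusions was low for *Gm14586*, at 3.37 against 4.73 to 4.76, for *Gm8430*, at 3.24 against 4.52 to 4.59, and for *Gm15427*, at 5.25 against 6.10 to 6.21, and high for *Gm20632*, at 2.28 against 1.73 to 1.79. *Gm28875* was high in replicate 3 of the Pkp4 cUTR protrusions, at 5.599 against 4.99 to 5.05, and *Gm10260* in replicate 1 of the Pkp4 cUTR cell bodies, at 9.32 against 9.09 to 9.10. *Gm26384* was low in replicate 2 of the HBB protrusions, at 1.66 against 2.91 to 3.10, and high in replicate 4 of the Pkp4 cUTR cell bodies, at 3.48 against 0.65 to 0.99.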

How the results depend on the processing

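Other thresholds, scalings and libraries moved the counts of enriched or depleted genes, and no called value of the 35 genes named by rule changed sign. With sample totals the log2(FC) of 15 of the 150 in HBB and of 19 in Pkp4 cUTR cells changed sign, 1 of which (*Gm4262*, at 0.24 and then −0.03 in Pkp4 cUTR cells) had passed an adjusted p under 0.05. Against 35 enriched genes in HBB cells, scaling to sample totals gave 16, a fold above 1.5 gave 78, and the genes overlapping no other gene gave 20, and without 1 sample the number was 23 to 52. Against 29 in Pkp4 cUTR cells the same settings gave 11, 70 and 16, leaving out replicate 4 of both cell-body groups, chosen after seeing the data, gave 50, and without 1 sample 18 to 49. Against 2 depleted genes, log2(CPM + 1) gave 1 in each line, a fold above 1.5 gave 5 in each, genes overlapping no other gene 1 in HBB cells, and genes with a mean of at least 3 log2 CPM 1 in Pkp4 cUTR cells, and without 1 sample the number was 1 to 2 in both lines (1 without replicate 3 of the HBB protrusions). Against 3 genes by log2(Diff FC), an adjusted p gave 0 (2 of the 150 had an unadjusted p under 0.05), a mean of at least 1 log2 CPM 5, and genes overlapping no other gene 1, and without 1 sample the number was 2 to 7. In protrusions a fold above 1.5 between the lines gave 2 against 0. The cause of these changes was not tested.

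For named genes, 520 values under the other alternatives kept their side of the threshold, 35 lost it and 2 gained it, and without 1 sample 1005 kept it, 92 lost it and 7 gained it. With the replicate block, Ps against CB gave 30 enriched in HBB and 25 in Pkp4 cUTR cells and 1 depleted in Pkp4 cUTR cells, and ended the calls of *Gm4875* (adjusted p = 0.0821 in HBB and 0.119 in Pkp4 cUTR cells), of *Gm26384* (0.113 and 0.0835) and, in Pkp4 cUTR cells, of *Gm15459* (0.0528), and the block shared by the lines gave 6 genes by log2(Diff FC). The share of higher calls among all RNAs was 53.2% in HBB and 63.4% in Pkp4 cUTR cells, and fell to 17.4% and 19.01% with sample totals and to 45.1% and 52.2% with quantile normalization. The count models planned as alternatives were not run, since the deposited values are log2 CPM. Precision was limited by 22 reads at the lowest count, by 4 samples per group and by copies of near-identical sequence.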
